A study of Mus musculus with 8 samples.

Results

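The interleukin receptor block of mouse chromosome 1 is the stretch from 38132990 to 42769425 (GRCm38), 4.64 Mb long, that carries Il1r2, Il1r1, Il1rl2, Il1rl1, Il18r1 and Il18rap side by side. Every region of the authors' deposited table that lies whole between those edges is a member, which gives 420 of the 160978 regions measured. The edges were chosen from the fold changes of the same table, so the low values of the block are a description and carry no test. Just inside the lower edge, the authors' deposited table gives a log2 fold change of 1.20 at 38132990 to 38133251, and just outside it 0.88 at 38128767 to 38131490. At the upper edge, the authors' deposited table gives -0.62 for the last region inside, 42768758 to 42769425, and 1.18 for the first region outside, 42850715 to 42852135, which lies nearest to Mrps9.

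The values come from ATAC-seq, which marks open chromatin by where a transposase can insert, of bone marrow cells sorted as cKit+ Lymph- Ery- HSPC, a fraction that holds stem and progenitor cells. The libraries are 8: AML is represented by 2 libraries labelled URE-delta/+;Tet2-/- and 2 labelled URE-delta/+;Tet2+/-, and normal cells by 1 library each of URE-delta/+;Tet2+/+, URE+/+;Tet2-/-, URE+/+;Tet2+/- and URE+/+;Tet2+/+. The URE is the upstream regulatory element of Spi1, the gene of the myeloid transcription factor PU.1, and Tet2 encodes an enzyme that oxidises 5-methylcytosine. The authors' comparison sets leukemic against non-leukemic cells with low PU.1, and the question it answers is which regions differ in accessibility between them. All 4 AML libraries carry both changes and no normal library does, so effects of leukemia and of the double genotype cannot be told apart. The sources used here do not say which libraries were compared, and only 1 normal library has the URE deletion. The labels place the 4 AML libraries in lanes 6 and 7 and both normal libraries with Tet2 loss alone in lane 8, so lane and disease are partly mixed. Of age, the sources used here say only that controls were matched for it. No value per library was used, so the spread between mice, the depth and the error of each fold change are unknown. In sorted marrow, fewer cells of a type and less open chromatin per cell cannot be told apart.

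The interleukin-1 receptor family consists of cell surface proteins that bind inflammatory cytokines and, through a shared intracellular domain, recruit the adaptor MyD88 and IRAK kinases to activate NF-kB. Il1r1 encodes the signalling receptor for interleukin-1 and Il1r2 a decoy receptor that binds it without signalling. Il1rl2 encodes the receptor for interleukin-36, Il1rl1 the interleukin-33 receptor ST2, Il18r1 the binding chain for interleukin-18 and Il18rap its accessory chain. In marrow, interleukin-1 is known to drive progenitors towards myeloid output, ST2 is prominent on mast cells, basophils and some lymphoid cells, and the interleukin-18 receptor on T and NK cells.

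Promoters are shown for Aff3, which had the only promoter region of the block with a call, and for 4 of the 6 receptor genes. The promoter regions of these 4 genes had no call, while other regions beside or inside the genes were lower at an adjusted p under 0.05. Il1r1 and Il18rap also had higher regions at that threshold. Il1rl2 likewise had lower regions and no call at its promoter, which is not shown. For Il1rl1, the promoter shown lies inside the gene, and the set of promoters used holds none at the start of its extent. The region at that start, 40404441 to 40405140, stood at -2.38 in the authors' deposited table (adjusted p = 0.00221). Each sequence runs 5′ to 3′ along the gene's strand, from 250 bases before to 50 bases after the start, and was taken from RefSeq (GRCm38.p6). Capitals mark matches on either strand to any of 6 motifs: ETS AGGAAGT (letters that a PU.1 site also holds), AGATAA for GATA factors, RUNX TGTGGT, AP-1 TGANTCA, C/EBP TTGCAAT and E-box CANNTG.
Aff3, chr1:38627195-38627494, minus strand: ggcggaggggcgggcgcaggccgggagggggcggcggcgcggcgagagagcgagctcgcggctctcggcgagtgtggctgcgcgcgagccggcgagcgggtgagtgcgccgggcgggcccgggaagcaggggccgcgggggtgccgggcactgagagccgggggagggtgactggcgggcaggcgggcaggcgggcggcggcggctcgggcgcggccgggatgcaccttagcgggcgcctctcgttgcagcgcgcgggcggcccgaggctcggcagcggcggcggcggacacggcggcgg
Il1r1, chr1:40224830-40225129, plus strand: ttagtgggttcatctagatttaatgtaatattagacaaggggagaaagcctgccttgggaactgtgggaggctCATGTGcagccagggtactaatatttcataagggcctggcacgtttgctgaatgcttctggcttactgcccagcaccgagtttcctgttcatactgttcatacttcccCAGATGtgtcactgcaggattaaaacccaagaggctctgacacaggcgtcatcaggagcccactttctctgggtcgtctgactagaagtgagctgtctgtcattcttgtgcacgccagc
Il1rl1, chr1:40429320-40429619, plus strand: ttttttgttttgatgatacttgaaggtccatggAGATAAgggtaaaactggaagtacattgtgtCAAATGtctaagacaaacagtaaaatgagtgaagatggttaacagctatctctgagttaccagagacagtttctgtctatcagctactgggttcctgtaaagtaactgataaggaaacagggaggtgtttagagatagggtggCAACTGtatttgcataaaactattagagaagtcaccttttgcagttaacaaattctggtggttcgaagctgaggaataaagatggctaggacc
Il18r1, chr1:40465756-40466055, plus strand: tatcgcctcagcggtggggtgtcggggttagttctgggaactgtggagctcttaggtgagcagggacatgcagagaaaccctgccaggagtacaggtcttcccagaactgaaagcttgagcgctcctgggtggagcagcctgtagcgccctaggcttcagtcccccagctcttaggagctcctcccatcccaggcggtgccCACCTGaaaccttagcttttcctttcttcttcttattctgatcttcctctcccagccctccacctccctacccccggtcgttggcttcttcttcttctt
Il18rap, chr1:40515112-40515411, plus strand: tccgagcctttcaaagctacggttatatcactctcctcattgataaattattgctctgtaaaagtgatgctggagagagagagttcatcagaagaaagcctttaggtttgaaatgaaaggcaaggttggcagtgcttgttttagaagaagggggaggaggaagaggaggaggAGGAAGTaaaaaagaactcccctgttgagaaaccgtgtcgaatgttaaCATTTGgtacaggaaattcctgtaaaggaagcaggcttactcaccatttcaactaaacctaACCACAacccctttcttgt

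The Aff3 promoter held no match to the 6 motifs and was 83.3% G or C, with 54 CpG sites. The Il18rap promoter held an ETS match whose first base lies at -78 from the start, a RUNX match and an E-box, and 4 CpG sites. The Il1rl1 promoter held a GATA match and a pair of E-boxes with 1 CpG site, and of the 6 motifs the Il1r1 promoter shown held only E-boxes and the Il18r1 promoter shown only 1 E-box. Il18r1 has 3 RefSeq promoters, and the one at chr1:40465371-40465670 also held a RUNX match. Over the block's 56 RefSeq promoters, some of which overlap each other, the ETS letters occurred in 4 (7.14%), against 9.35% of all 32851 promoters. GATA letters were in 7.14% against 11.2%, RUNX letters in 25% against 16.8%, AP-1 letters in 5.36% against 7.81%, C/EBP letters in 1.79% against 2.22% and E-boxes in 82.1% against 72.3%. A match describes letters in the window and no binding, and matches of different motifs may share bases.

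Along the block, chromatin was mostly less open in leukemic cells, at several separate places and not evenly. The 420 regions had a median log2 fold change (leukemic over non-leukemic) of -0.59, with quartiles of -1.34 and 0.17, and 298 of them (71.0%) were below 0. At the authors' threshold, an adjusted p under 0.001, 15 regions (3.57%) fell, where 1.22% of the full table fell, and 3 (0.71%) rose, where 1.24% of the full table rose. At an adjusted p under 0.05, 75 block regions (17.9%) were lower and 12 (2.86%) higher, beside 9.21% and 7.98% of the full table. Since the block was chosen on these values, nothing is read from those shares. By nearest gene, 332 regions belonged to 26 protein-coding genes, of which 20 had a median below 0, and 88 to 25 other genes, mostly lncRNA genes. Of the protein-coding genes, 7 had a region that fell and 2 a region that rose. Single regions spanned from -3.82 inside Aff3 to 2.89 between Rfx8 and Map4k4 in the authors' deposited table.

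**Figure D1:**
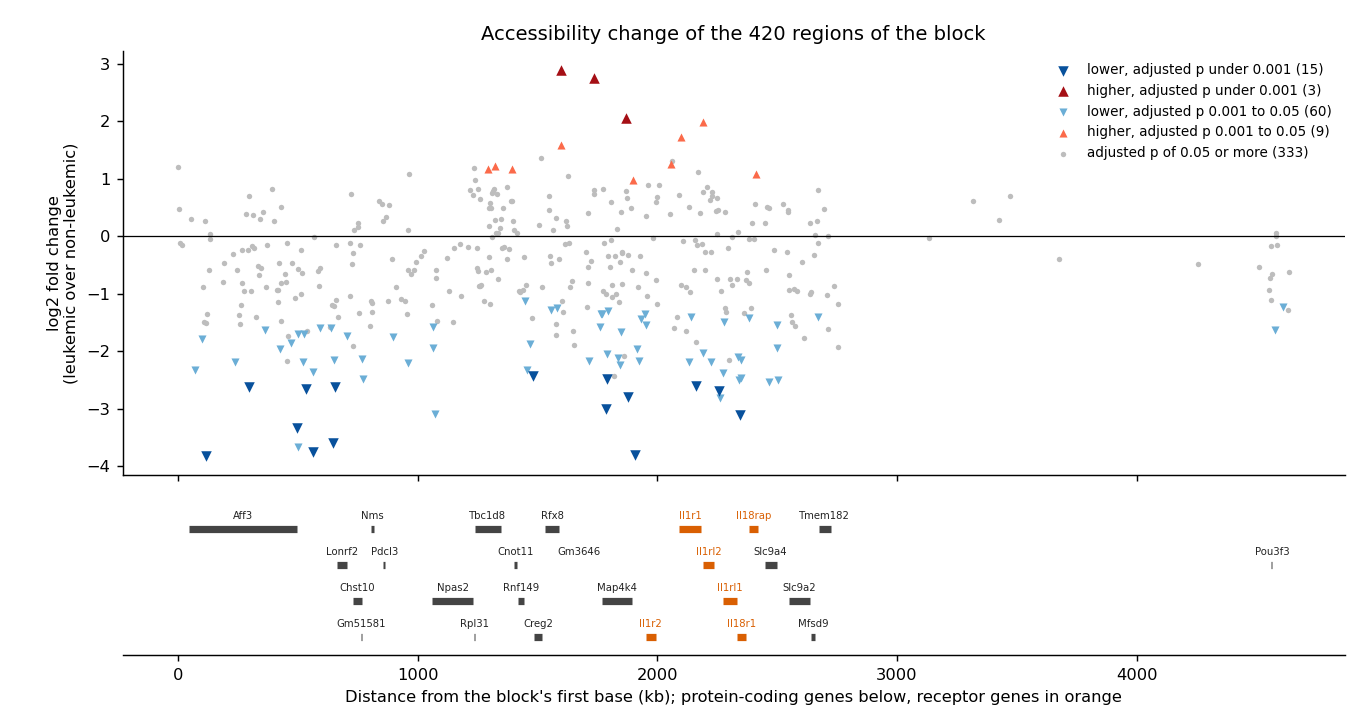
Log2 fold change (leukemic over non-leukemic, y axis) of each of the 420 regions against distance from the block's first base in kb (x axis), with the protein-coding genes below and receptor genes in orange. Dark downward triangles mark the 15 regions that fell and dark upward triangles the 3 that rose at an adjusted p under 0.001. The low values lie in several groups, and the gene-poor part after Tmem182 holds few regions.

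The first group of low regions lies at Aff3 and Lonrf2. Aff3, which encodes a nuclear protein of the AF4 family of transcription elongation factors, was nearest to 59 regions whose median log2 change was -0.80, of which 3 fell and 0 rose. The region over its promoter, 38626992 to 38628800, holds the whole sequence shown for Aff3 and stood at -3.34 in the authors' deposited table (adjusted p = 5.80e-05). Inside the gene, the authors' deposited table gives -3.82 at 38249612 to 38249904 (adjusted p = 1.30e-04), the lowest of the block, and -2.62 at 38428622 to 38429966 (adjusted p = 4.49e-04). The other regions of Aff3 reached up to 0.82, so the gene held both low regions and regions near 0.

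Between Aff3 and Lonrf2, in a gap of 163 kb picked after its values were seen, all 26 regions were below 0. Their median log2 fold change was -1.58, and 4 of them fell. Lonrf2, which encodes a RING finger protein, had a median of -1.49 over 12 regions, of which 10 lie outside the gene, mostly in this same gap. One of them, 38776600 to 38778233, lies 16253 bp outside the gene and had the lowest adjusted p of the block, at -3.60 in the authors' deposited table (adjusted p = 2.20e-05), and another, 38787492 to 38787825, 6011 bp outside it, stood at -2.62 (adjusted p = 8.87e-04). Also in the gap, the region nearest to a snoRNA gene and the one nearest to the lncRNA gene Gm34596 stood at -3.75 (38693931 to 38695253, adjusted p = 3.01e-05) and at -2.65 (38662686 to 38665925, adjusted p = 8.11e-04) in the authors' deposited table. No deposited region overlapped the RefSeq promoter of Lonrf2.

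From Chst10 to Npas2, 0 regions passed 0.001. Chst10, a sulfotransferase gene, had a median of -0.13 over 10 regions. The region over its promoter, 38897153 to 38898274, stood at -2.14 in the authors' deposited table (adjusted p = 0.00226). Its centre lies where Chst10 and the gene Gm51581 overlap. It was counted with Gm51581, so the Chst10 median leaves it out. Nms, the gene of the peptide neuromedin S, had a median of -1.23 over 4 regions, and Pdcl3, a chaperone gene of the phosducin family, 0.30 over 4. Gm51581 was nearest to 2 regions, that one included, with a median of -2.31, both at an adjusted p under 0.05. Npas2, a circadian transcription factor gene related to Clock, had a median of -0.84 over 16 regions with values from -3.09 to 0.81. Its promoter region at 39193599 to 39194355 stood at -1.58 in the authors' deposited table (adjusted p = 0.00486).

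From Rpl31 to Rnf149 the block held a stretch of 214 kb whose 48 regions centred on 0, with a median of 0.08 and 0 lower against 3 higher at an adjusted p under 0.05. This stretch was also picked after its values were seen. Rpl31, a ribosomal protein gene with 2 regions, had a promoter region at 1.19 in the authors' deposited table (adjusted p = 0.0648). Tbc1d8, a gene with a Rab GTPase-activating domain, had a median of 0.06 over 33 regions, from -1.17 to 1.22. The authors' deposited table gives 0.31 (adjusted p = 0.270) at the Tbc1d8 promoter and 0.10 (adjusted p = 1.00) at that of Cnot11, a subunit gene of the CCR4-NOT deadenylase with 3 regions. Rnf149, an E3 ubiquitin ligase gene, had the most abundant region of the block over its promoter, at -0.35 in the authors' deposited table (adjusted p = 0.155). Its other 5 regions lay from -1.13 to -0.85, and the gene's median was -0.94 over all 6. For the lowest of these 5, at -1.13, the authors' deposited table gives an adjusted p of 0.0226. That region lies just past the end of the stretch, so the count of 0 lower regions leaves it out.

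Around Creg2, Rfx8 and Map4k4, called regions of both signs lay near each other. Creg2, a secreted glycoprotein gene with a median of -0.34 over 4 regions, had 1 that fell, 39614173 to 39615370, at -2.42 in the authors' deposited table (adjusted p = 8.78e-04). Rfx8, of the RFX transcription factor family, had a median of -0.12 over 20 regions. The region at 39729972 to 39730150, nearest to Rfx8, rose to the highest value of the block, 2.89 in the authors' deposited table (adjusted p = 7.80e-05). A second region that rose, 39869981 to 39870181, stood at 2.75 in the authors' deposited table (adjusted p = 3.21e-04) and lies nearest to the lncRNA gene Gm35600. Gm3646 had a median of -1.26 over 4 regions.

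Map4k4, which encodes a Ste20-type kinase upstream of JNK, had 4 regions that fell and 1 that rose among 41, the most calls of any gene in the block, with a median of -0.85. Inside it, the authors' deposited table gives -3.00 at 39917678 to 39919030 (adjusted p = 2.05e-04), -2.49 at 39920677 to 39920883 (adjusted p = 5.25e-04) and -2.79 at 40007979 to 40008476 (adjusted p = 3.50e-04). A short way before the last of these lies the region that rose, 40002130 to 40002676, at 2.06 in the authors' deposited table (adjusted p = 3.22e-04). Between Map4k4 and Il1r2, the region at 40037837 to 40038145 stood at -3.80 in the authors' deposited table (adjusted p = 6.89e-05). That gap of 58.4 kb held 11 regions with a median of -1.36, of which 6 were lower and 1 higher at an adjusted p under 0.05.

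**Figure D2:**
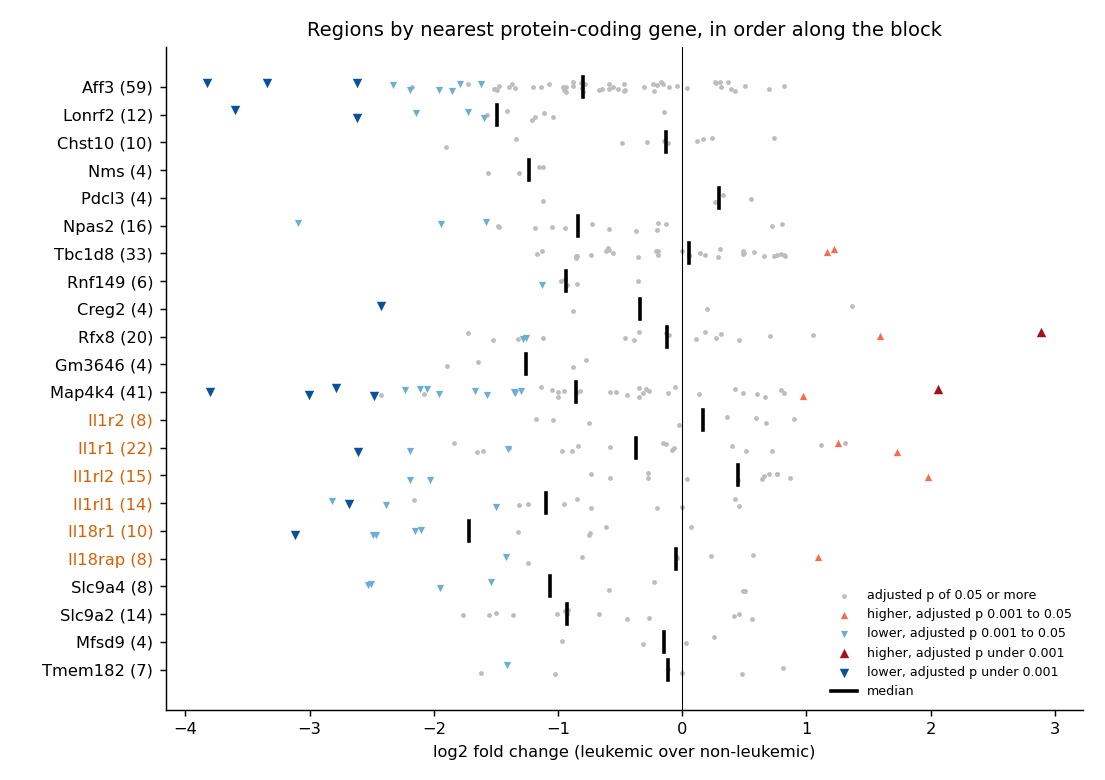
Log2 fold change (leukemic over non-leukemic, x axis) of the regions of each protein-coding gene with at least 4 regions (rows, in order along the block, region number in brackets). Points are regions, spread vertically at random, and black bars are medians. Lonrf2 and Il18r1 have the lowest medians, -1.49 and -1.71, and Tbc1d8 and Il1r2 stand near 0. Regions are assigned by nearest gene, and 10 of the 12 of Lonrf2 lie outside it.

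The 6 receptor genes together had 77 regions, whose median log2 change was -0.58, beside -0.59 over the other 343 regions of the block. Of the 77, 3 fell (3.90%) and 0 rose, beside 1.22% and 1.24% of the full table. At an adjusted p under 0.05, 15 were lower (19.5%) and 4 higher (5.19%), beside 9.21% and 7.98% of the full table. The lower ones lay between -3.12 and -1.41. As for the whole block, nothing is read from these shares. By gene, the medians were -1.71 for Il18r1, -1.10 for Il1rl1, -0.37 for Il1r1, -0.05 for Il18rap, 0.17 for Il1r2 and 0.45 for Il1rl2. The ranges of all 6 overlap, and with no error per region it was not tested whether neighbours in that order differ.

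Il18r1 held the densest group of low regions among the receptor genes. Of its 10 regions, 5 had an adjusted p under 0.05, all of them lower and all inside the gene. In order from its start, the authors' deposited table gives -2.10 at 40469607 to 40470430 (adjusted p = 0.00226), -2.49 at 40473517 to 40474616 (adjusted p = 0.00238) and -3.12 at 40475703 to 40476066 (adjusted p = 9.66e-04). Then follow -2.47 at 40479439 to 40480369 (adjusted p = 0.00883) and -2.15 at 40482481 to 40482711 (adjusted p = 0.00702) in the authors' deposited table. The middle one, 9878 bp after the nearest RefSeq start, is the one that fell. The promoter region of the gene, 40465382 to 40466396, contains the whole Il18r1 sequence shown and stood at -0.74 in the authors' deposited table (adjusted p = 0.275). Past the gene's far end, the region at 40501049 to 40502284 is its most abundant, at -0.75 in the authors' deposited table (adjusted p = 0.110).

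Il18rap, the accessory chain gene, did not share that pattern in its values. Its promoter region, 40515011 to 40515713, which contains the sequence with the ETS and RUNX matches, stood at -0.81 in the authors' deposited table (adjusted p = 0.0802). The region 1162 bp before its start, 40514067 to 40514334, had -1.42 in the authors' deposited table (adjusted p = 0.0339). Near the far end of the gene, 40544676 to 40544974 had 1.09 in the authors' deposited table (adjusted p = 0.0347). Its other regions lay from -1.24 to 0.57.

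Il1rl1, the ST2 gene, had 4 of 14 regions lower at an adjusted p under 0.05 and 0 higher, and 3 of the 4 lay before or at the start of its extent. The region at 40391380 to 40391818, 13265 bp before the gene, fell, at -2.68 in the authors' deposited table (adjusted p = 7.47e-04). Its neighbour at 40392513 to 40393811 stood at -2.82 (adjusted p = 0.00342) and the region at the gene's edge, 40404441 to 40405140, at -2.38 (adjusted p = 0.00221), both from the authors' deposited table. Inside the gene, 40409850 to 40410380 had -1.50 in the authors' deposited table (adjusted p = 0.0200). The region over the first RefSeq promoter of the gene in the set used, 40428948 to 40432120, stood at -2.16 in the authors' deposited table with an adjusted p of 0.207. Its log2 abundance was -2.93, close to the lowest of the full table, -3.01, a low read level.

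Il1r1, the signalling interleukin-1 receptor gene, had regions of both signs among its 22. Inside the gene, 40294332 to 40295456 fell, at -2.61 in the authors' deposited table (adjusted p = 7.41e-04). Also lower were 40262503 to 40263480 at -2.19 (adjusted p = 0.00469) and 40270361 to 40271995 at -1.41 (adjusted p = 0.0160), per the authors' deposited table. Higher were 40229125 to 40229332 at 1.73 (adjusted p = 0.00236) and, before the gene, 40187881 to 40188332 at 1.25 (adjusted p = 0.0257), per the authors' deposited table. The regions over its pair of RefSeq promoters stood at 0.72 (adjusted p = 0.101) and 0.51 (adjusted p = 0.566) in the authors' deposited table, the first of them over the Il1r1 sequence shown.

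Il1r2, the decoy receptor gene, had 8 regions from -1.18 to 0.90 and no region with an adjusted p under 0.05. Its promoter region, 40085413 to 40086150, also covers the promoter of the lncRNA gene Gm16894 on the other strand and stood at 0.36 in the authors' deposited table (adjusted p = 0.403). Il1rl2, the interleukin-36 receptor gene, held neighbours of opposite sign near its start. The region at 40321653 to 40322849 had -2.03 (adjusted p = 0.00333) and that at 40323399 to 40323598, 1091 bp before the start, 1.98 (adjusted p = 0.00121) in the authors' deposited table. Over its promoter, 40324231 to 40325927 stood at 0.77 in the authors' deposited table (adjusted p = 0.146). Within the gene, its most abundant region, 40354415 to 40356633, had -2.19 in the authors' deposited table (adjusted p = 0.00223).

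**Figure D3:**
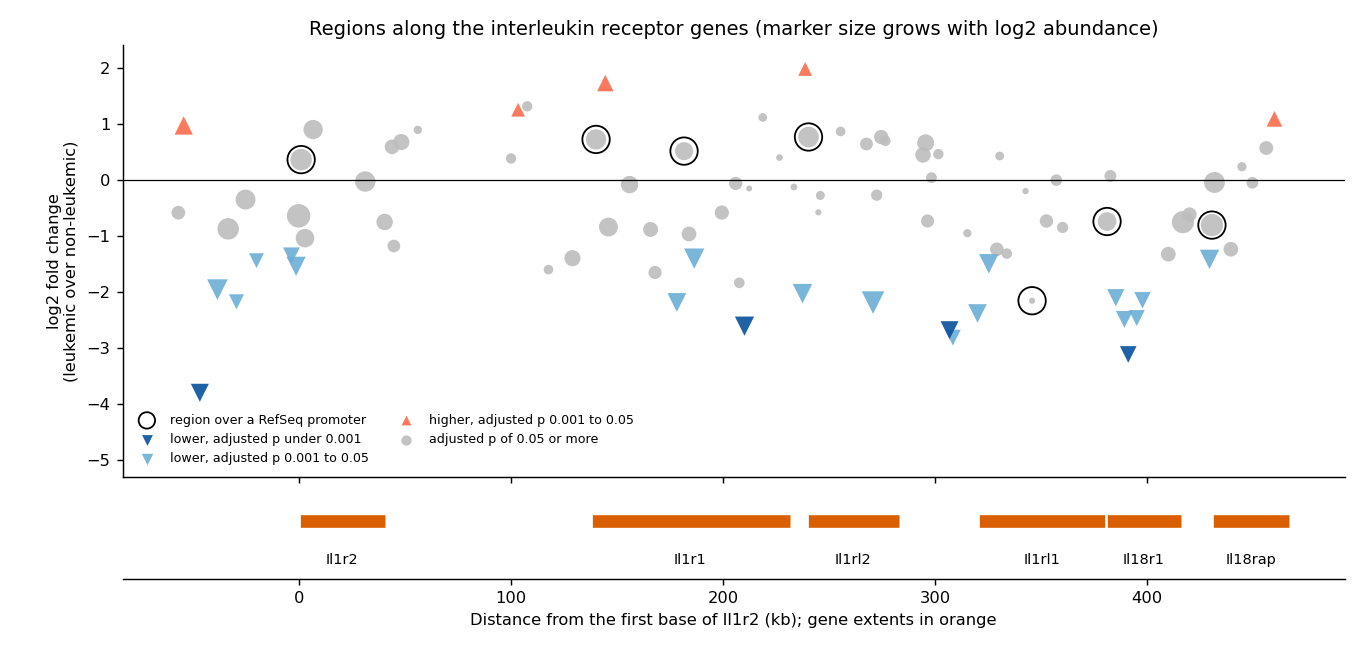
Log2 fold change (leukemic over non-leukemic, y axis) of regions from 60 kb before Il1r2 to 20 kb after Il18rap against distance from the first base of Il1r2 in kb (x axis), with gene extents in orange. Marker size grows with the authors' log2 abundance and open rings mark regions over RefSeq promoters. The 5 low regions inside Il18r1 lie together, while its promoter region stands at -0.74.

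Beyond the receptors, Slc9a4 and Slc9a2, both genes of sodium and hydrogen ion exchangers, had medians of -1.07 over 8 regions and -0.92 over 14, and none of those regions fell. The most abundant region of Slc9a4, 40634642 to 40635133, stood at -2.50 in the authors' deposited table (adjusted p = 0.00276). Mfsd9, of a membrane transporter family, and Tmem182, a membrane protein gene of muscle, had medians of -0.15 over 4 regions and -0.12 over 7. After Tmem182, 1791 kb with no protein-coding gene held 10 regions with a median of -0.44 and 0 calls. Pou3f3, a transcription factor gene of the nervous system, had 2 regions with a median of -0.41.

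By place, the block's medians were below those of the other regions at gene ends, inside genes and between genes. Region centres within 1 kb of a gene end (38 regions) had a median of -0.75, against 0.19 over all other regions of that kind. Inside genes (244 regions) the median was -0.58, against -0.01, and between genes (138 regions) it was -0.61, against -0.03. The 20 regions that overlap a RefSeq promoter had a median of -0.26, against 0.19 for promoter regions elsewhere, and 1 of them, at Aff3, fell. Beside those named above, the authors' deposited table gives -2.17 (adjusted p = 0.00214) at the promoter of 1700066B17Rik, -0.88 at Creg2, -0.39 at Rfx8, -0.17 at Pou3f3, 0.03 at Mfsd9 and 0.05 at Pantr2. Of the 7 promoter regions of the receptor genes, 0 fell or rose and 0 passed 0.05, and their median was 0.36, beside -0.60 over the other 70 receptor regions. These counts depend on the set of promoters used, which has no entry for Map4k4 or Pdcl3. The set also lacks the start of the Il1rl1 extent, where the region stood at -2.38 in the authors' deposited table (adjusted p = 0.00221).

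The shift was present in 4 of the 5 equal classes of abundance and small in the lowest. From the lowest class to the highest, the block's medians were -0.16, -0.59, -0.73, -1.03 and -0.82, against 0.04, 0.03, -0.02, 0.02 and 0.01 over all other regions. Of the 15 regions that fell, 12 were among the 80 block regions of the highest class, where 5.24% of all other regions fell, and 3 were in the next. Whether the abundance takes account of region width is not said in the sources used here. The median width was 1124 bp for the regions that fell, 200 bp for the 3 that rose and 316.5 bp for the whole block.

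Both flanks of the same length were closer to 0 than the block. The flank before it (458 regions) had a median of -0.12 with 6 regions that fell (1.31%) and 3 that rose (0.66%). The flank after it (218 regions) had -0.14 with 2 (0.92%) and 0. At an adjusted p under 0.05, 12.0% of the flank before were lower and 4.59% higher, and 6.88% and 1.38% of the flank after. The rest of chromosome 1 had a median of -0.02, with 142 of 11428 regions (1.24%) that fell and 92 (0.81%) that rose. All other regions had a median of 0.02 with chromosome 2 and 0.06 without it. No test was made of these differences, since the edges were set from the same values.

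**Figure D4:**
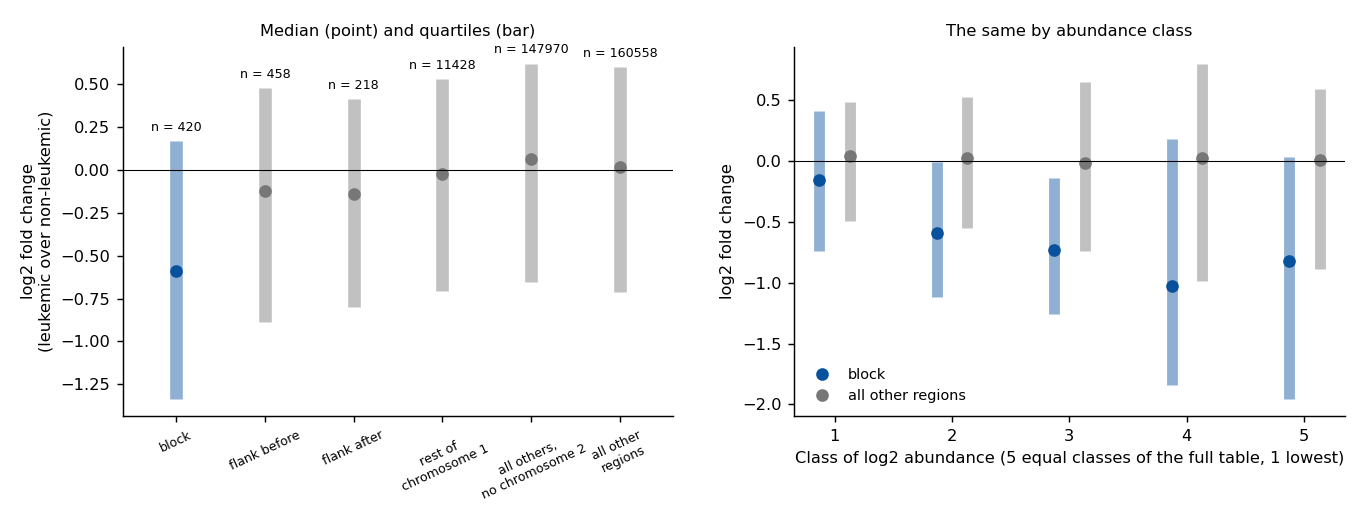
Left, median (point) and quartiles (bar) of the log2 fold change (leukemic over non-leukemic) of the block, its flanks of equal length, the rest of chromosome 1 and all other regions. Right, the block (blue) and all other regions (grey) by class of log2 abundance, lowest class first, with the block's median lowest in class 4 at -1.03.

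Genes of the same pathway elsewhere in the genome were taken from a list of 37, of which 35 had a region. With calls at an adjusted p under 0.001, 3 of them had a region that fell and 1 a region that rose. That is 3 of the list's 249 regions (1.20%) lower and 1 (0.40%) higher, no larger shares than the 1.22% and 1.24% of the full table. At an adjusted p under 0.05, 38 (15.3%) were lower and 19 (7.63%) higher, beside 9.21% and 7.98% of the full table. Without chromosome 2 those shares of the list were 11.7% and 8.56%. Among ligands and natural inhibitors, Il1b, the interleukin-1 beta gene, had 1 region that fell, at -4.12 in the authors' deposited table (chromosome 2, 129364015 to 129364279, adjusted p = 9.96e-04). The 33 ligand regions had a median of -0.93, but 6 of the 9 ligand genes lie on chromosome 2, and the 10 regions of the other 3 had a median of 0.53. The receptor genes outside the block, Il1rap, Il1rapl1, Il1rapl2 and Sigirr, had 28 regions with a median of -0.70 and 0 calls. In that order, the medians of these genes were -0.63, -1.53, -1.01 and 0.90, so Sigirr had the opposite sign. Signalling genes had 173 regions with a median of -0.18. Single regions fell at Nfkb1, an NF-kB subunit gene, to -3.12 (adjusted p = 5.57e-05) and at Mapk14, the p38 kinase gene, to -1.80 (adjusted p = 9.77e-04), and 1 rose at Irak2 to 1.62 (adjusted p = 9.04e-04), all from the authors' deposited table. The 3 genes that mature the ligands, Casp1, Pycard and Nlrp3, had 15 regions with a median of 0.05 and 0 calls.

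Marker genes of cells known to use these receptors had called regions in each list. The shares are to be read beside the 1.22% lower and 1.24% higher of the full table. The part of these genes in the block's values was not tested. Of 11 mast cell and basophil genes, Hdc and Cd200r3 had regions that fell and Mcpt8 one that rose, with a median of -0.46 over 80 regions. These were 4 lower regions (5%) and 1 higher (1.25%), but Hdc lies on chromosome 2, and without that chromosome 2 of 71 regions (2.82%) were lower. Of 12 T, NK and innate lymphoid genes, Rora alone had called regions, 1 that fell (0.72% of the list's regions) and 2 that rose (1.45%), shares near those of the full table, with a median of -0.14 over 138 regions. Of 12 neutrophil genes, Ltf and Retnlg had regions that fell and Mpo, Elane and Ctsg regions that rose. These were 2 lower (3.45%) and 4 higher (6.90%) of 58 regions with a median of -0.69. Without chromosome 2, which holds Lcn2 and Mmp9, the same calls were 4.35% and 8.70% of 46 regions. At an adjusted p under 0.05 the balance of the 58 neutrophil regions was the opposite, with 19 lower (32.8%) and 8 higher (13.8%). At that threshold, 15% of the mast cell and basophil regions were lower and 2.5% higher. For the lymphoid list the shares were 9.42% and 8.70%, beside 9.21% and 7.98% of the full table. Kit, the receptor on which the cells were sorted, had 16 regions with a median of 0.07 and 0 calls.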

How the data were processed

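ATAC-seq of sorted mouse marrow was analysed from the authors' own comparison. Per the submitters' processing notes, the tools were Bowtie2 2.4.1, SAMtools 1.10.2 and Genrich 0.6 on GRCm38 (mm10), and the table's title names csaw. The sources used here do not give its normalization, filters or any shift of reads for the transposase. The deposited table gives per region the authors' log2 fold change and log2 abundance (a reading that rests on column position and range), with the authors' p-value and adjusted p-value. The adjusted values equal a Benjamini-Hochberg adjustment over all regions, and the authors' changed sets equal an adjusted p under 0.001. Coordinates are printed as deposited, as 0-based or 1-based starts, which the sources used here do not say.

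Regions were assigned by their centre to the nearest RefSeq (GRCm38.p6) gene extent within 100 kb. Promoters are 250 bases before to 50 after a RefSeq start, and 1 shared base counts as overlap. The set of promoters used lacks some gene starts. Medians and counts were computed with pandas 2.3.3 in Python 3.11.15, and the code was tested on simulated data. Named were all protein-coding genes of the block, regions with an adjusted p under 0.001, receptor regions under 0.05, the most abundant regions of some genes and promoter regions. The block, gene lists and motifs were chosen with earlier results of these data known. No test was run, since the values are 1 per region, with none per library, and the block was chosen on the fold changes.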

Additional observations from a re-analysis of the deposited data

How the results depend on the processing

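The counts followed the threshold: in the block 4 regions were lower and 1 higher at an adjusted p under 0.0001, and 75 and 12 at 0.05, beside 15 and 3 at 0.001. At the receptor genes 0 were lower at 0.0001 and 15 at 0.05, beside 3 at 0.001, and 4 were higher at 0.05, beside 0. The block's median log2 fold change of -0.59 was -0.87 with regions at or above the table's median abundance and -0.84 weighted by width. The receptor median of -0.58 was -0.78 at or above that abundance and -0.69 with regions inside a gene or within 5 kb of it, where 2 were lower. Moving both edges by 250 kb inwards or outwards gave 14 or 15 lower, 3 or 4 higher and medians of -0.59 or -0.56. With the nearest protein-coding gene, an alternative chosen after seeing the data, the receptor median was -0.60 with 3 lower and 0 higher. No median changed sign under these alternatives.

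No paired analysis was possible because the values used are 1 fold change per region with no value per library, and leaving out a replicate was not run for the same reason. Depth is unknown and no fold change has an interval, which limits most the regions of low abundance such as the Il1rl1 promoter region. Every value depends on which libraries were compared, which the sources used here do not say.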
